A study of Mus musculus with 23 samples.

Results

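The ionotropic glutamate receptor genes examined here encode subunits of the glutamate-gated ion channels. They comprise the kainate receptor genes Grik1, Grik2, Grik3, Grik4 and Grik5, the AMPA receptor genes Gria1, Gria2, Gria3 and Gria4, and the NMDA receptor gene Grin1. These 10 genes, of 23369 gene names with an RNA-seq value, were chosen by name after a change of Grik3 had been seen in these same samples, and the question was whether its paralogs moved with it. The difference between both groups is therefore described for all 10 members and is not tested.

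The cells were mouse embryonic stem cells (ESCs) carrying Kdm2b fl/fl alleles, in which loxP sites allow the exon that encodes the DNA-binding ZF-CxxC domain of KDM2B to be removed. KDM2B is the protein through which a variant polycomb repressive complex is brought to CpG islands. All groups shared these alleles and, per the study's methods, an ERT2-Cre transgene at Rosa26, which is active in the presence of tamoxifen, with gene targeting done in MS12 ESCs. RNA was sequenced from 3 samples labelled untreated and from 3 labelled as given 4-hydroxytamoxifen at 800 nM for 72 hr, whereas the series text gives 800 µM. Cells were kept on inactivated embryonic fibroblasts, and feeders were removed overnight beforehand. The untreated cells carry Cre but received no tamoxifen, so an effect of tamoxifen or of active Cre cannot be told apart from an effect of the deletion. The other 17 samples of the series, from ChIP-seq, were not analysed here.

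Groups follow the sample labels. Going by file name instead, the treatment of each of the 6 RNA-seq samples would be swapped, and every difference below would change sign and keep its size. The targeted gene does not decide between these readings. Kdm2b measured 27, 21.5 and 27.7 FPKM (fragments mapped to a gene, scaled to its transcript length and to the fragments mapped in the sample) in untreated replicates 1 to 3 and 19.9, 21.9 and 25 FPKM in tamoxifen replicates 1 to 3. These ranges overlap, and a value over the whole gene does not resolve the floxed exon. Each sample held 23874 rows, of which 11571 to 11980 reached 1 FPKM. The tables hold no read counts, so the depth is unknown, and the precision of single values is read from the confidence bounds deposited with them. All 8 ESC markers were measured well above the level filter, with Dppa5a at 1400 to 3530 FPKM and Pou5f1 at 369 to 832 FPKM over the 6 samples, and none passed the test between groups.

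Glutamate receptors of this class are tetramers that open a cation channel when glutamate binds, and they carry most fast excitatory transmission in the brain. Kainate subunits encoded by Grik1, Grik2 and Grik3 can form channels by themselves, whereas those of Grik4 and Grik5 need such a partner and raise the affinity for the ligand. AMPA receptors give the fast component of the synaptic current, and the Gria2 subunit, after RNA editing, keeps calcium out. NMDA receptors require the subunit encoded by Grin1 together with glutamate-binding Grin2 subunits. ESCs are not neurons, and many genes of neuronal lineages are held at low levels in them, often with CpG-rich promoters bound by polycomb complexes.

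The starts of the member genes differed in CpG content, and 4 stretches are shown, for Grik3 and Grik4, whose levels did not overlap between groups, and for Grik5 and Gria3, the most highly expressed members. Each is the 250 bases just before the outermost annotated start in mm9, on the strand of the gene, with every CG dinucleotide in capitals. They lie at chr4:125167694-125167943 on the plus strand for Grik3, chr9:42752577-42752826 on the minus strand for Grik4, chr7:25857389-25857638 on the minus strand for Grik5 and chrX:38753781-38754030 on the plus strand for Gria3.
Grik3: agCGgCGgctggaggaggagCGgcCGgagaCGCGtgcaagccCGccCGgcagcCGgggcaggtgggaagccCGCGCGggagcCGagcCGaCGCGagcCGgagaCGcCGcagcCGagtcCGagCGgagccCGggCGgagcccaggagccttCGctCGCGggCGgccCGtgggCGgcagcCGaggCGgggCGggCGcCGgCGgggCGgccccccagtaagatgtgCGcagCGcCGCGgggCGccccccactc
Grik4: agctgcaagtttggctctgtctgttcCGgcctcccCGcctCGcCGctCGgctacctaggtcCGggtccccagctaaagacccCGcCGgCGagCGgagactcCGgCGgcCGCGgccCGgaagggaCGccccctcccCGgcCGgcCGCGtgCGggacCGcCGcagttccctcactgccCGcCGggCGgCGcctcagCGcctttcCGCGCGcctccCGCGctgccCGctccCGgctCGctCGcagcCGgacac
Grik5: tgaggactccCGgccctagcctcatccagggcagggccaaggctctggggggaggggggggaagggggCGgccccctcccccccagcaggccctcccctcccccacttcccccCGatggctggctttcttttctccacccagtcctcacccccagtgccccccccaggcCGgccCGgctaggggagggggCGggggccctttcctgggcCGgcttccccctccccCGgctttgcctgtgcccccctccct
Gria3: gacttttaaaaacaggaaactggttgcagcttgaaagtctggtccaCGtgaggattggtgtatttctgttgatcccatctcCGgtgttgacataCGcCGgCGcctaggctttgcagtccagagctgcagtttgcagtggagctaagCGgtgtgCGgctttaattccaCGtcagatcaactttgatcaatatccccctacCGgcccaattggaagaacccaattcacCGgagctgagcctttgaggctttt

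The stretch before Grik3 held 42 CpG dinucleotides at a GC content of 82%, and that before Grik4 held 38 at 77.2%. The stretch before Grik5 was nearly as rich in G and C, at 75.2%, but held only 8 CpG, and that before Gria3 held 10 at 50%. The median over all genes was 9. Members not shown, whose levels overlapped between groups, held 27 (Grin1), 26 (Gria2), 20 (Grik1), 17 (Grik2), 16 (Gria4) and 4 (Gria1). In the wider window of 1000 bases around the 5′ end of the locus, Grik3 held 122 CpG, more than 97.3% of 20900 genes, and Grik4 held 107, more than 93.9%. Grin1 held 83 and Grik2 held 53, against a median of 45 and quartiles of 14 and 72 over all genes. The remaining members held between 18 (Gria1) and 46 (Gria2). CpG-rich windows were defined by a GC content from 55% up and a CpG observed-over-expected ratio from 0.6 up, and 4 of 10 members met both limits (Grik2, Grik3, Grik4 and Grin1), against 41.5% of all genes.

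**Figure D1:**
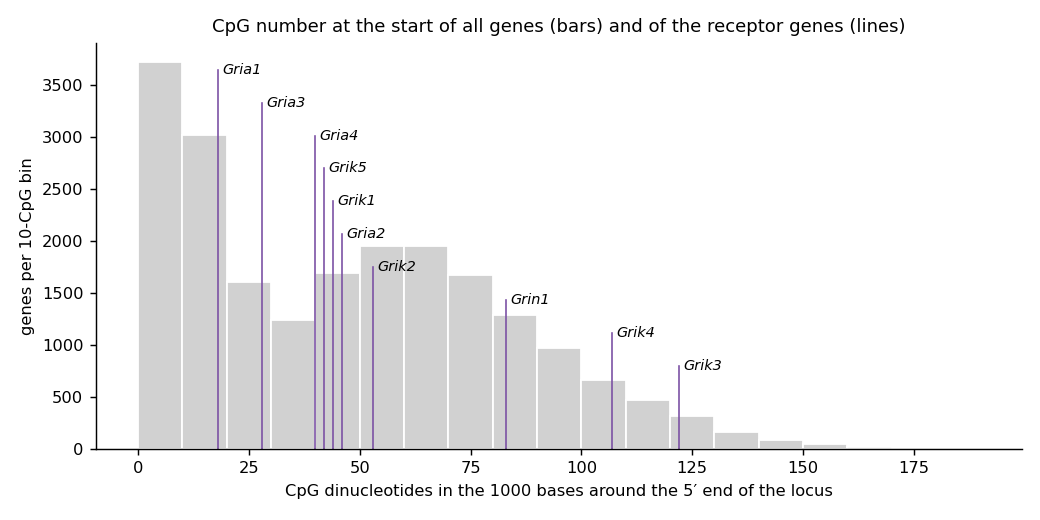
Number of genes (vertical axis) by the number of CpG dinucleotides in the 1000 bases around the 5′ end of the locus in mm9 (horizontal axis, bins of 10), with all 20900 genes as bars and the 10 members as labelled lines whose heights carry no value. Grik3 at 122 and Grik4 at 107 lie in the right tail, and Gria1 at 18 lies farthest to the left of the members.

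The same windows were searched on both strands for TTCAGCACC, a core part of the RE1 element, to which REST, a repressor of neuronal genes outside neurons, binds. Of the 10 members 1 held it, Grin1, against 1.58% of all windows. The match lies within the Grin1 locus on the minus strand, 129 bases downstream of the locus start. It is shown with its flanks, at chr2:25174536-25174564, and with the motif in capitals.
Grin1: cccaatacgcTTCAGCACCtcggacagca
A match of letters says nothing about binding in these cells.

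The members spanned a wide range of levels in ESCs. Grik5 was the highest, with a mean over the 6 samples of 4.55 FPKM (range 3.45 to 5.27), a level above that of 62.5% of all genes. Gria3 followed at 1.54 FPKM (0.514 to 2.57), Grik3 at 1.29 (0.545 to 2.39) and Gria4 at 0.619 (0.129 to 1.11). Below these came Grin1 at 0.325, Gria1 at 0.256, Grik4 at 0.162 and Grik2 at 0.107 FPKM, and last Gria2 at 0.0132 and Grik1 at 0.00843 FPKM. Between neighbours in this order, ranges were separate only for Grik5 above Gria3 and for Grik2 above Gria2. Gria3 exceeded Grik3 in 4 of 6 samples, so their order was within the spread, and Grik3 exceeded Gria4 in all 6. The orders of Grin1 and Gria1, of Gria1 and Grik4, and of Gria2 and Grik1 each held in 3 of 6 samples and were not resolved.

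**Figure D2:**
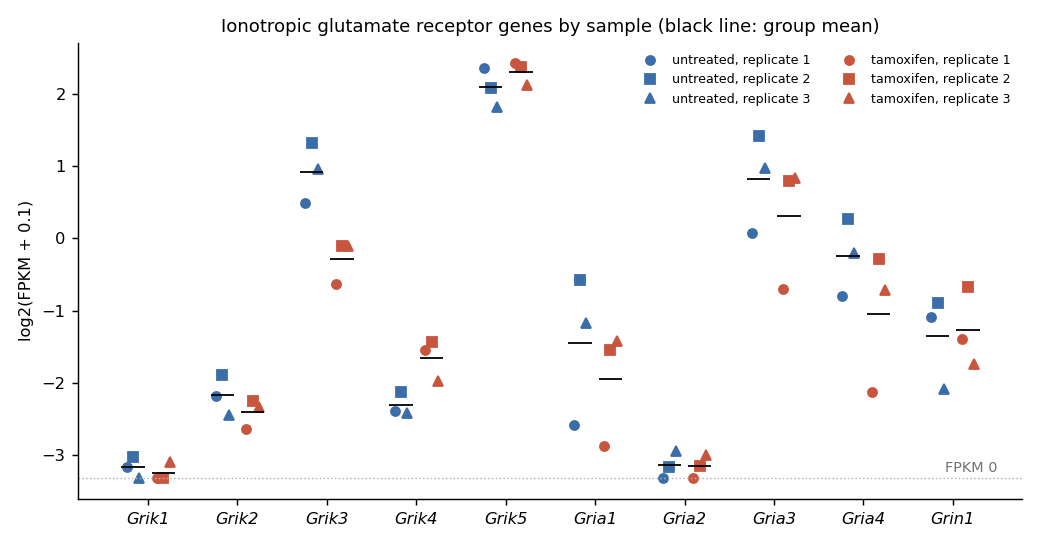
Level of each member as log2(FPKM + 0.1) (vertical axis) in the 3 untreated (blue) and 3 tamoxifen (red) samples, with the replicate number as the symbol, the group mean as a black line and an FPKM of 0 as a dotted line. Blue and red points are separate for Grik3, where red is lower, and for Grik4, where red is higher, and overlap for the other 8 members.

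Among the kainate receptor genes, Grik3, whose subunit forms channels of low glutamate affinity, was lower in the tamoxifen samples. Its level was 1.3, 2.39 and 1.85 FPKM in untreated replicates 1 to 3 (mean 1.85 ± 0.547, SD, n = 3) and 0.545, 0.832 and 0.832 FPKM in tamoxifen replicates 1 to 3 (0.736 ± 0.166, SD, n = 3). Every untreated sample was above every tamoxifen sample. Of the tested genes 5.4% were likewise lower without overlap. The deposited confidence bounds cover the quantification within a sample and not the spread between samples. The lowest untreated bound was 1.14 and the highest tamoxifen bound 0.976 FPKM. The untreated mean was 2.51 times the tamoxifen mean, and the difference on log2(FPKM + 0.1), tamoxifen minus untreated, was -1.20 (SE 0.342, or 0.19 when replicate numbers entered the fit as a block). It was -1.11, -1.42 and -1.07 within replicate numbers 1, 2 and 3. Among 12997 tested genes 1.22% had a difference at or below that of Grik3. Since Grik3 was chosen for this change, its separation and rank only describe the change and are not evidence for it. In bulk samples, fewer cells expressing a gene cannot be told apart from less RNA per cell.

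Grik4, whose subunit raises ligand affinity in a heteromer, moved the other way at a much lower level. It measured 0.0898, 0.129 and 0.0879 FPKM in untreated replicates 1 to 3 and 0.241, 0.269 and 0.154 FPKM in tamoxifen replicates 1 to 3. All tamoxifen samples were above all untreated ones, as for 3.72% of the 18843 genes above 0 in any sample. The tamoxifen mean was 2.16 times the untreated mean and the log2 difference was 0.66 (SE 0.24, blocked 0.195), with 0.84, 0.69 and 0.44 within replicate numbers 1 to 3. The deposited bounds overlap, the highest untreated bound being 0.199 and the lowest tamoxifen bound 0.0642 FPKM. Grik4 never reached 0.5 FPKM and so was not among the tested genes.

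Grik5, the other high-affinity kainate subunit and the most highly expressed member, measured 5.05, 4.16 and 3.45 FPKM in untreated replicates 1 to 3 and 5.27, 5.11 and 4.27 FPKM in tamoxifen replicates 1 to 3. The groups overlap. Within each replicate number the tamoxifen sample was the higher, by 0.06, 0.29 and 0.30 on the log2 scale, a direction shared in all 3 numbers by 24.8% of tested genes. The mean log2 difference was 0.22 (SE 0.246, blocked 0.125).

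Grik2, which encodes a kainate subunit common in the forebrain, measured 0.121, 0.169 and 0.0839 FPKM untreated and 0.061, 0.11 and 0.0982 FPKM with tamoxifen in replicates 1 to 3. The ranges overlap and the log2 difference of -0.23 had an SE of 0.227. Grik1 was at 0.0109, 0.0229 and 0 FPKM untreated and at 0, 0 and 0.0167 FPKM with tamoxifen. Its deposited lower bound was 0 in all 6 samples, so no difference could be read.

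Of the AMPA receptor genes, Gria1, Gria3 and Gria4 had lower means with tamoxifen, but none separated the groups, and Gria2 was near 0. Gria3, an X-linked AMPA subunit gene, measured 0.954, 2.57 and 1.87 FPKM in untreated replicates 1 to 3 and 0.514, 1.63 and 1.69 FPKM in tamoxifen replicates 1 to 3. The groups overlap, with replicate 1 the lowest of each. Its log2 difference was -0.52 (SE 0.512, blocked 0.197) and -0.78, -0.63 and -0.14 within replicate numbers 1 to 3, lower in all 3 like 28.2% of tested genes.

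Gria4, the AMPA subunit gene expressed early in development of several brain circuits, measured 0.475, 1.11 and 0.766 FPKM in untreated replicates 1 to 3 and 0.129, 0.722 and 0.509 FPKM in tamoxifen replicates 1 to 3. The groups overlap, and again replicate 1 was the lowest of each group. The log2 difference was -0.80 (SE 0.541, blocked 0.274), with -1.33, -0.56 and -0.51 within numbers 1 to 3. On this scale Gria4 was the member nearest to Grik3. By the ratio of mean FPKM, 2.51 for Grik3 and 1.73 for Gria4, other members were nearer in size. These were Grik4 at 2.16, in the other direction, Grik1 at 2.03, which was near 0 FPKM, and Gria1 at 1.77.

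Gria1, which encodes a main AMPA subunit of the adult forebrain, measured 0.0667, 0.569 and 0.344 FPKM untreated and 0.0361, 0.244 and 0.274 FPKM with tamoxifen in replicates 1 to 3. Replicate 1 was far below the others in each group, and the groups overlap. Its log2 difference of -0.50 had an SE of 0.594 (blocked 0.233). Gria2, the subunit gene that sets calcium permeability, was at 0, 0.0117 and 0.0293 FPKM untreated and at 0, 0.0128 and 0.0254 FPKM with tamoxifen, with a lower bound of 0 in all 6 samples.

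Grin1, the obligatory NMDA subunit gene, measured 0.368, 0.44 and 0.135 FPKM untreated and 0.28, 0.53 and 0.2 FPKM with tamoxifen in replicates 1 to 3. The groups overlap and the sign differed between replicate numbers (-0.30, 0.22 and 0.35). Its locus overlaps Lrrc26, listed at 0 in all 6 samples, and E130003G02Rik, listed at 0 to 0.116 FPKM.

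**Figure D3:**
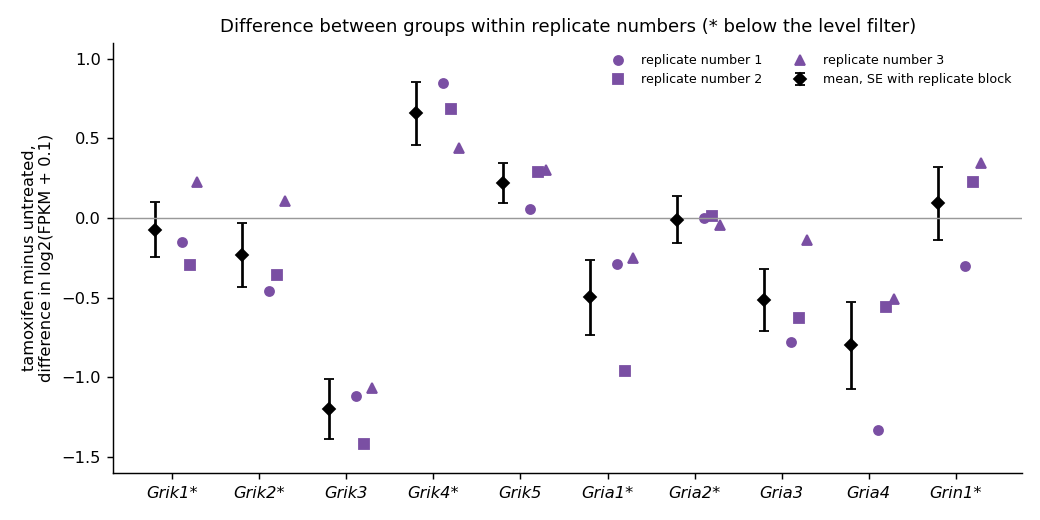
Difference in log2(FPKM + 0.1), tamoxifen minus untreated (vertical axis), for each member, within replicate numbers 1 (circles), 2 (squares) and 3 (triangles), with the mean and the SE of the fit with the replicate block as a black diamond and bar. Grik3 lies between -1.07 and -1.42 in all 3 numbers, Grik4 lies above 0 in all 3, and an asterisk marks the 6 members below the level filter.

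Within replicate numbers, 4 of 10 members were lower with tamoxifen in all 3 (Grik3, Gria1, Gria3 and Gria4), and 2 were higher in all 3 (Grik4 and Grik5). Among the 18843 genes above 0 in any sample 23.8% were lower and 20.6% higher in all 3. The median log2 difference of the 9 members other than Grik3 was -0.07, beside -0.02 over the 18843 genes above 0. That median is the value of Grik1, which is near 0 FPKM, and it was -0.42 with a pseudocount of 0.01 and -0.47 as a log2 ratio of mean FPKM. Of the 10 members 4 passed the level filter of 0.5 FPKM in at least 3 samples (Grik3, Grik5, Gria3 and Gria4).

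The size of the Grik3 difference was set against that of each paralog within replicate numbers. The Grik3 log2 difference minus that of Grik5 was -1.42 ± 0.271 (SD over 3 replicate numbers), and minus that of Grik4 it was -1.86 ± 0.313. These gaps were negative in every replicate number. Minus that of Gria3 the gap was -0.69 ± 0.311, again negative in every number. Minus that of Gria4 it was -0.40 ± 0.554, and the sign differed between numbers, 0.22 in number 1 against -0.86 and -0.56 in numbers 2 and 3. Grik3 and Gria4 thus differed by less than the spread between replicate numbers.

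Levels of several members also moved with the replicate number. Setting the mean of replicates 2 and 3 over replicate 1, the ratio was 1.64 untreated and 1.53 with tamoxifen for Grik3. It was 2.33 and 3.23 for Gria3, 1.98 and 4.78 for Gria4, and 6.85 and 7.18 for Gria1, whereas Grik5 gave 0.752 and 0.89. A ratio of at least 1.5 in both groups, a limit chosen after these values were seen, was met by 12.4% of tested genes. Markers of the fibroblast feeders moved with the replicate number in the same direction. The 11 listed markers, none at 0 in all samples, summed to 91.2, 232 and 219 FPKM in untreated replicates 1 to 3 and to 87.8, 191 and 200 FPKM in tamoxifen replicates 1 to 3, and S100a4, which some other cell types also express, and Col1a1 made up most of that sum. The sum overlapped between groups, and 0 of the 10 tested markers were called with the block. The share of summed FPKM in loci under 300 bases was 23.9% and 25.6% in the replicate 1 samples and between 42.3% and 67.7% in the others. The part of feeder cells, of this share or of culture in the levels of Gria1, Gria3, Gria4 and Grik3 was not tested.

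**Figure D4:**
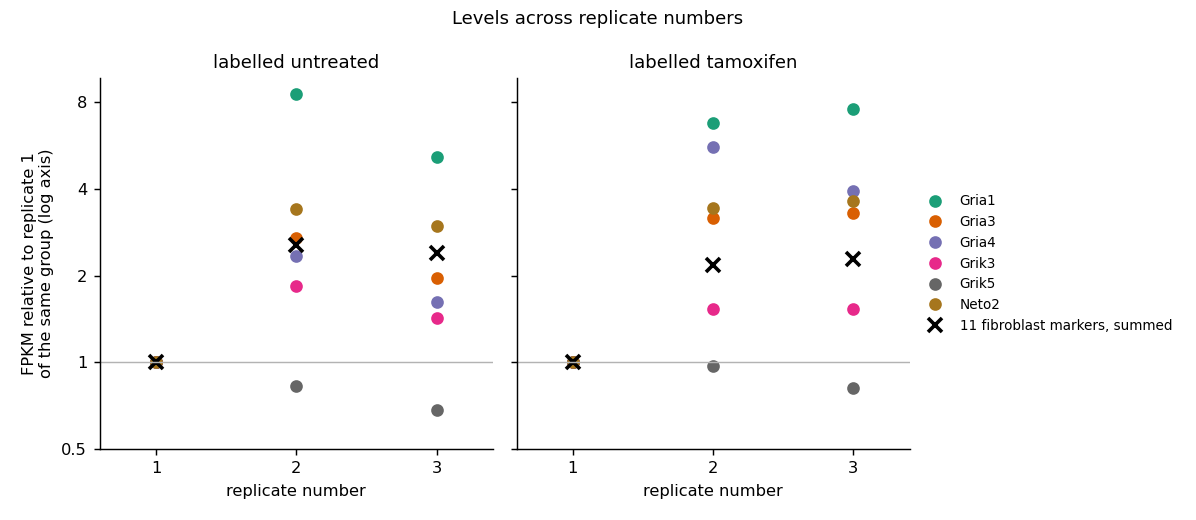
FPKM relative to replicate 1 of the same group (vertical log axis) by replicate number (horizontal axis) for 5 members, Neto2 and the sum of 11 fibroblast markers (crosses), in untreated samples on the left and tamoxifen samples on the right. Gria1, Gria3, Gria4, Grik3, Neto2 and the marker sum are above 1 in replicates 2 and 3 of both groups, and Grik5 is below 1.

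Markers of neural cells bear on the members because these receptors are neuronal genes. Neural progenitor markers summed to 26.4 to 32.3 FPKM untreated and 17.2 to 23.1 FPKM with tamoxifen, without overlap. Of single tested genes, 5.4% were lower without overlap. Of 9 listed, none was at 0 in all samples, 1 was under 0.1 FPKM in every sample and 5 were tested. By limma 0 were called without the block (Benjamini-Hochberg), and 3 were called lower and 1 higher with it. Over all tested genes, 6.06% were called lower and 4.33% higher with the block. Pax6, a transcription factor of neural progenitors, was at 6.96, 4.33 and 5.64 FPKM untreated and 1.12, 1.38 and 2.6 FPKM with tamoxifen, a log2 difference of -1.73 (blocked SE 0.254, adjusted p = 0.01 with the block and 0.38 without). Nes, an intermediate filament of progenitors, fell by 0.55 on the log2 scale (blocked SE 0.116, adjusted p = 0.027 with the block and 0.86 without), and Sox1 was the remaining lower call. Neurog1, which drives neuronal commitment, was the higher one.

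Neuron markers, none at 0 in all samples but 1 under 0.1 FPKM in every sample, summed to 128 to 159 FPKM untreated. With tamoxifen they summed to 151 to 186 FPKM, an overlap. Of 9 tested among 13 listed, 2 were called higher and 3 lower with the block, 1 and 1 with the block and quantile normalization, and 0 without a block, where 4.33% and 6.06% of all genes were called higher and lower with the block. Gap43, a growth cone protein gene, was higher by 1.19 on the log2 scale (adjusted p = 0.0096 with the block). The most abundant were Stmn2, a microtubule regulator, with a log2 difference of 0.41 (adjusted p = 0.032 with the block and 0.06 with the block and quantile normalization), and Tubb3, a neuronal tubulin, at 0.15 (adjusted p = 0.37 with the block). The 3 called lower with the block were Elavl3 (-0.665, adjusted p = 0.035), Nefl (-0.628, adjusted p = 0.032) and Syp (-0.606, adjusted p = 0.034). Of these, Nefl was also called with the block and quantile normalization (adjusted p = 0.04). Glia markers summed to 47.6 to 72.7 FPKM untreated and 33 to 46 FPKM with tamoxifen, mostly Olig1 and Olig2. None of the 8 listed was at 0 in all samples, but 2 were under 0.1 FPKM in every sample. With the block 1 of 5 tested was called lower, Olig2 (-1.07, adjusted p = 0.0042), and 1 higher, Mbp (0.78, adjusted p = 0.026), and 0 were called without it. Whether any neural cells were present among the ESCs, and had a part in the lower Grik3 level, was not tested.

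Genes that act with these receptors were taken from 6 lists of 52 genes in all, of which 21 passed the level filter. By limma without a block 0 were called in either direction, with 4 at an unadjusted p under 0.05, all lower. With the replicate block 6 were called lower and 0 higher, with a median log2 difference of -0.25 over the 21 tested beside -0.02 over all genes. Grid1, among the 6, and Grin2d passed the level filter through the untreated samples alone, which favours lower values in this count and median. Over all tested genes 0.0231% were called higher and 0.00769% lower without the block, and 4.33% higher and 6.06% lower with it. The calls depended on which replicate numbers entered the fit: leaving out number 1, 2 or 3 left 5, 0 and 2 of them. Each of the 6 genes was lower within every replicate number, so their log2 differences had to stay below 0 with a number left out. Without number 2 they lay between -1.13 (Grid1) and -0.69 (Neto2), while calls over all genes then fell to 36 higher and 43 lower. The block with quantile normalization left 4 (all genes 4.29% higher and 4.51% lower), and the block on all 18843 genes without a level filter left 0 (0.886% higher and 1.28% lower).

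Among the 8 other ionotropic receptor genes 2 were tested and 1 was called lower with the block. Grid1, a delta receptor gene whose product organizes synapses, measured 0.606, 0.671 and 0.731 FPKM untreated and 0.347, 0.196 and 0.175 FPKM with tamoxifen. The groups did not overlap, with tamoxifen lower, as for 5.4% of tested genes. The log2 difference was -1.21 (blocked SE 0.3, adjusted p = 0.66 without the block, 0.044 with it and 0.098 with the block and quantile normalization). Grin2d, an NMDA subunit gene typical of early development, was at 0.591, 0.786 and 0.529 FPKM untreated and 0.312, 0.412 and 0.417 FPKM with tamoxifen (adjusted p = 0.17 with the block). Both passed the level filter through the untreated samples alone, which by itself favours a lower value with tamoxifen.

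Grin2c, another NMDA subunit gene, was below the filter, with 0.113 to 0.156 FPKM untreated and 0.0695 to 0.0719 FPKM with tamoxifen, again without overlap, as for 5.38% of the 18843 genes above 0 in any sample. Grin2a, Grin2b and Grin3a did not exceed 0.0387 FPKM in any sample and Grin3b was listed at 0 in all. With Grin1 and Grin2d both under 1 FPKM, the NMDA subunit genes as a group were low in these cells.

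Auxiliary subunits, which shape channel kinetics and trafficking, had 5 of 12 genes tested and 2 called lower with the block. Neto2, the kainate receptor auxiliary subunit gene, measured 1.56, 5.31 and 4.65 FPKM in untreated replicates 1 to 3 and 0.848, 2.91 and 3.08 FPKM in tamoxifen replicates 1 to 3. Groups overlap because replicate 1 was low in each, as for Gria3 and Gria4. Its log2 difference was -0.75 (SE 0.584, blocked 0.144, adjusted p = 0.022 with the block). Cacng7, which encodes a transmembrane AMPA receptor regulatory protein, measured 28, 27.2 and 23.9 FPKM untreated and 11.2, 16.9 and 18.8 FPKM with tamoxifen. The groups did not overlap, with tamoxifen lower, as for 5.4% of tested genes. The log2 difference was -0.78 (blocked SE 0.172, adjusted p = 0.67 without the block and 0.032 with it). Cnih2, a cornichon AMPA auxiliary subunit gene, had means of 5.37 and 4.51 FPKM (log2 difference -0.25, adjusted p = 0.23 with the block).

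Postsynaptic scaffolds had 9 of 13 genes tested and 2 called lower with the block. Shank3, a master scaffold of excitatory synapses, measured 1.95, 1.89 and 1.86 FPKM untreated and 0.821, 1.09 and 0.981 FPKM with tamoxifen. The groups did not overlap, with tamoxifen lower, as for 5.4% of tested genes. The log2 difference was -0.92 (blocked SE 0.182, adjusted p = 0.63 without the block and 0.023 with it). Grip1, which binds the tails of AMPA receptor subunits, differed by -0.65 (blocked SE 0.162, adjusted p = 0.045 with the block and 0.089 with the block and quantile normalization). The most abundant scaffolds showed little difference in means. Dlg1 had means of 23.6 and 23.3 FPKM, Homer3 21.3 and 21.6, and Pick1, which binds AMPA receptor subunits, 18.6 and 19.

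Transporters had 3 of 8 genes tested and 1 called lower with the block. Slc17a7, which loads glutamate into synaptic vesicles, measured 2.59, 1.89 and 1.14 FPKM untreated and 1.11, 0.952 and 0.721 FPKM with tamoxifen. Its log2 difference was -0.89 (blocked SE 0.193, adjusted p = 0.93 without the block and 0.03 with it). Slc1a3, a glial glutamate uptake transporter gene, was not called (-0.56, adjusted p = 0.076 with the block), nor was Slc1a6, another uptake transporter gene (-0.18). The RNA editing enzyme genes, of a family with members that recode AMPA and kainate subunit transcripts, had 2 of 3 tested and 0 called. Adar had a mean of 8.9 FPKM in both groups, Adarb1 differed by -0.23, and Adarb2 did not exceed 0.00915 FPKM.

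**Figure D5:**
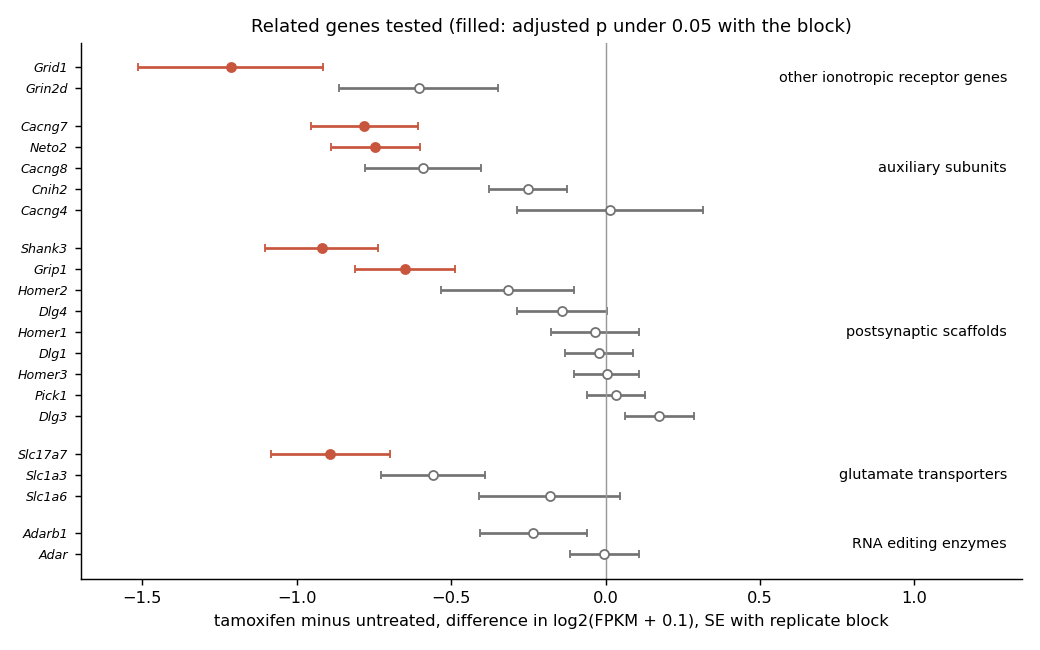
Difference in log2(FPKM + 0.1), tamoxifen minus untreated (horizontal axis), with the SE of the fit with the replicate block, for the 21 tested related genes grouped by list. The 6 filled points, those with an adjusted p under 0.05 with the block, all lie left of 0, and Dlg1, Homer3, Pick1 and Adar lie close to 0.

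The tested genes most like Grik3 over the 6 samples, by Pearson correlation of log2(FPKM + 0.1), were B4galt6 (0.994), 4930506M07Rik (0.994), Crtc1 (0.992), Wbp1l (0.99) and Igdcc4 (0.988). These values describe 6 samples that share groups and replicate numbers. Igdcc4 measured 4.78, 8.87 and 7.11 FPKM untreated and 1.21, 2.68 and 2.71 FPKM with tamoxifen. Its log2 difference of -1.65 was larger than that of Grik3, whereas those of B4galt6 (-0.50) and Wbp1l (-0.31) were smaller. Of the members, Gria4 had a correlation of 0.814 with Grik3, below that of 599 tested genes, and Gria3 one of 0.731, below that of 1229. Grik5 had -0.69.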

How the data were processed

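RNA was sequenced from 3 untreated and 3 tamoxifen samples as poly(A)-selected, directional libraries. The authors deposited Cufflinks-style gene tables, which give an FPKM with its confidence bounds and quantification status in each sample. The submitters' processing notes name TopHat2, Cufflinks 2.1.1, Cuffdiff 2.1.1 and mm9, and the study's methods refGene models. The effect of reads shared between paralogs on these estimates was not measured.

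Rows were summed by gene name, and 6 names with a failed quantification were left out. Genes with at least 0.5 FPKM in at least 3 of 6 samples (12997) were fitted on log2(FPKM + 0.1), which understates changes of low genes, with limma 3.58.1 in R 4.3.3 (lmFit, eBayes with trend). P-values were adjusted by Benjamini-Hochberg and called under 0.05. With an FPKM table a count model could not be used. Labels give both groups replicate numbers 1 to 3. Deviations from the group means correlated at 0.544, 0.605 and 0.506 between samples of the same number. The numbers were therefore taken to pair the samples, and the block was fitted beside the unpaired design. Correlations between other samples were negative, which adds no separate evidence, since deviations from a mean of 3 samples sum to 0. The labels do not say whether the RNA-seq samples came from separate cultures, though the methods call them biological triplicates, and p-values measure the spread between these samples only.

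The members and gene lists were chosen with earlier results of these data known. Named are all members, Kdm2b, the other ionotropic receptor genes (1 is not reported here), per related list the 3 most abundant genes and any called, the 5 genes most like Grik3, and the 2 most abundant markers per list. Pax6, Sox1, Neurog1, Gap43, Elavl3, Nefl, Syp and Mbp were named after their values were seen. Sequences were read from the mm9 genome with the GENCODE vM1 annotation; all 10 members were matched. The fits were run on data simulated from the blocked fit, a setting that suits the block. Only the size of the simulated fold changes had to be recovered. Alternatives changed the pseudocount, scaling, filter, repeated rows, variance model, failed rows, block and samples. Counts, ranges and ratios came from pandas 2.3.3 under Python 3.11.15.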

Additional observations from a re-analysis of the deposited data

How the results depend on the processing

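The Grik3 log2 difference of -1.20 moved by less than 1 SD (0.367) under 20 of 21 alternatives and was -0.70 with a pseudocount of 1. The median of the 9 other members, -0.07, moved by less than its SD of 0.232 in 19 of 21 and was -0.42 with a pseudocount of 0.01 and -0.47 as a log2 ratio of mean FPKM. Several alternatives could not move either value. Adding the block, dropping the filter, or changing the variance model, failed rows or repeated rows left both unchanged, so these counts overstate stability. With a replicate number left out the Grik3 difference ranged from -1.27 to -1.09. Signs of the members held throughout except for Gria2, Grin1 and Grik1, which changed in 5, 3 and 1 of 15 settings. Requiring 1 FPKM in all 6 samples gave no value for Grik3 or the median.

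Over all genes, 3 were called higher and 1 lower without a block. With the replicate block 563 and 787 were called, with the block and quantile normalization 558 and 586, and with the block and no filter 167 and 241. Requiring 1 FPKM in all 6 samples called 0 and 0, and a pseudocount of 1 called 0 lower. Leaving out 1 sample called 0 to 5 higher and 0 to 7 lower. Leaving out a replicate number with the block, added after seeing the data, called 744, 36 and 359 higher and 1011, 43 and 478 lower without numbers 1, 2 and 3. Of the related genes 0 were called lower without a block, 6 with it, 4 with the block and quantile normalization, and 0 to 5 with the block and a number left out. Pairing changed no other call among related genes. Scalings moved the median of all genes by at most 0.098. The depth is unknown, and members under about 0.1 FPKM (Grik1, Gria2) are at the limit of these tables.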

Other observations

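The metabotropic glutamate receptor genes, whose G protein-coupled products sense glutamate without forming a channel, were all below the level filter, and 4 of 8 were under 0.1 FPKM in every sample. Grm6, the receptor gene of retinal ON bipolar cells, was the highest. It measured 0.268, 0.926 and 0.71 FPKM in untreated replicates 1 to 3 and 0.0338, 0.417 and 0.3 FPKM in tamoxifen replicates 1 to 3. The groups overlap, and replicate 1 was the lowest of each, as for Gria3 and Gria4. Within replicate numbers 1 to 3 the log2 difference was -1.46, -0.99 and -1.02 (blocked SE 0.218). Grm4, a presynaptic receptor gene, moved the other way, from 0.106, 0.0418 and 0.0868 FPKM untreated to 0.286, 0.258 and 0.203 FPKM with tamoxifen, without overlap. Of the 18843 genes above 0 in any sample, 3.72% were likewise higher without overlap. Grm8, of the same subgroup, had means of 0.28 FPKM untreated and 0.196 FPKM with tamoxifen and overlapped. None of these differences was tested, since no metabotropic receptor gene reached 0.5 FPKM in 3 samples.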
